A study of Homo sapiens with 26 samples.

Results

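The genes described here are those that set a human melanoma cell line apart from a human myeloid leukaemia line. They are the genes at 5 FPKM or more in both vehicle-treated libraries of A375 cells or in both of NOMO-1 cells, with no missing value in these 4 libraries. FPKM corrects RNA fragment numbers for transcript length and library size, so levels of different genes can be set side by side. This rule was met by 12036 of the 63129 genes deposited. A375 is an established melanoma line that carries a BRAF mutation, and NOMO-1 is an established acute myeloid leukaemia line of monocytic type with a KMT2A-MLLT3 (MLL-AF9) fusion.

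The study sequenced RNA from 26 libraries in 13 groups of 2, to follow how cells become tolerant of CPI203, a small molecule that blocks the bromodomains of BET proteins. The comparison here is between parental A375 cells after 6 h in the vehicle DMSO and parental NOMO-1 cells after 24 h in DMSO, with 2 libraries each. Other libraries show how far the pattern extends. They are parental A375 cells untreated at 0 h or after 6 h with 1 uM CPI203, clones 1 and 4 of A375 under the same 3 conditions, parental NOMO-1 cells after 24 h with 1 uM CPI203, and a tolerant NOMO-1 clone treated for 24 h, either with CPI203 at 1 uM or with its vehicle. The labels call the clones of both lines resistant, and the protocol mentions no allele or transgene in any group. A375 cells were grown attached in flasks in DMEM and NOMO-1 cells in RPMI with more serum, so that line, medium, time in DMSO and library series change together and cannot be told apart. Each lineage is represented by 1 line. What belongs to the lineage and what to the line cannot be told apart either.

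Melanocytes arise from the neural crest, and the transcription factors SOX10, PAX3 and MITF specify them and switch on the enzymes of pigment synthesis. Melanoma lines keep parts of this program and range from pigmented states to dedifferentiated ones with high AXL. Myeloid cells depend on PU.1 (SPI1), C/EBP factors, RUNX1, GFI1 and IRF8, which switch on granule proteins, growth factor receptors and the respiratory burst oxidase. KMT2A fusions are known for keeping HOXA9 and MEIS1 active in leukaemia cells.

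The replicates of a group agreed far better than the lines did. Across genes, log2(FPKM + 1) correlated with r = 0.983 between the A375 libraries and r = 0.992 between the NOMO-1 libraries, but with only 0.722 to 0.736 between libraries of different lines. Replicates were apart by a median of 0.195 (absolute log2 difference) in A375 cells and 0.155 in NOMO-1 cells. FPKM summed to 555182 and 511815 in the A375 libraries, against 488682 and 454204 in the NOMO-1 libraries, and 15220 to 15358 genes reached 1 FPKM in each. Read counts were not used, so depth is unknown and no counting interval can be given. Pseudogenes took 18.2% or more of the A375 sums, against 13.7% or more of the NOMO-1 sums. Small structured RNAs took 0.236% of replicate 1 of A375, which stands apart, against 0.0285% of its replicate 2 and 0.0197% to 0.0247% of the NOMO-1 libraries. The part of these technical differences in the results was not tested, beyond the fits without each library. The labels do not say that replicates were separate cultures, so p-values measure only the spread between these libraries, which may be technical in part.

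Most genes differed between the lines. In a limma fit over all 26 libraries, 73.8% of the 19370 genes tested passed an adjusted p of 0.05. Of all genes, 34.6% were higher and 39.3% lower in A375 cells. Of the 12017 genes of the set that were tested 4178 were higher, 5111 were lower and 2728 were not called, with a median log2 difference of -0.11, against -0.06 over all genes tested. Another 19 genes of the set were left out of the fit because of a missing value in another library. Because so many genes passed, a size of at least 8-fold on the scale of FPKM + 1 is used below to mark the large differences. Of all genes tested, 3.0% were higher by that much in A375 cells and 3.5% lower, and 578 and 678 of these genes belong to the set. A gene apart by that much nearly always reaches the 5 FPKM of the rule, so this says nothing about the set. Counts in the gene lists below are to be read beside these shares of all genes tested. In bulk RNA, fewer cells of a type and less RNA per cell cannot be told apart.

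By level alone the set falls into 3 main kinds. Genes at 5 FPKM or more in all 4 libraries made up 8540, or 71.0%, and are called shared. There were 465 genes, or 3.86%, at 5 FPKM or more in both A375 libraries and below 0.5 FPKM in both NOMO-1 libraries. They are called A375-restricted. The reverse held for 557 genes, or 4.63%, which are called NOMO-1-restricted. Between these lay 1082 genes (8.99%) on the A375 side and 1392 genes (11.6%) on the NOMO-1 side. Protein-coding genes made up 377 of the A375-restricted and 468 of the NOMO-1-restricted genes. At the edge of the rule, SLC25A43 was just inside with 4.09 and 4.33 FPKM in A375 cells and 5.00 and 5.52 FPKM in NOMO-1 cells. CHST3 was just outside with 4.9975 and 5.71 FPKM in A375 cells and 0.0884 and 0.0812 FPKM in NOMO-1 cells.

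**Figure D1:**
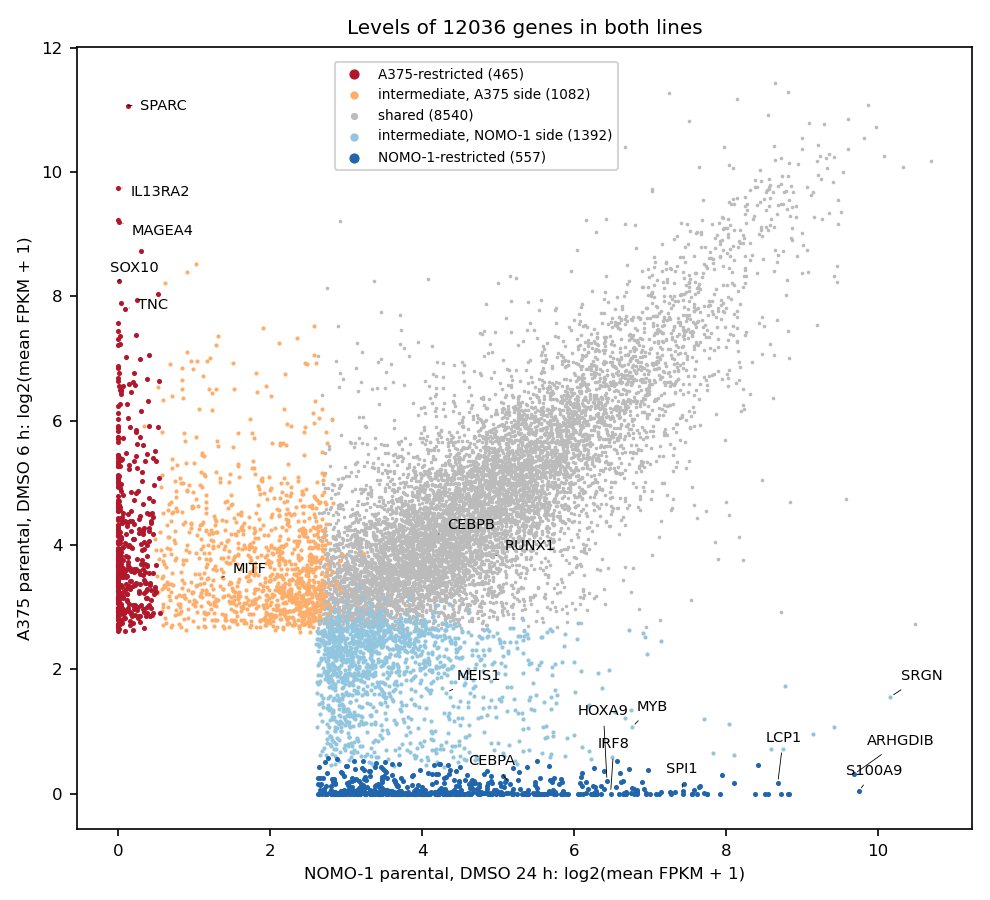
Each point is 1 of the 12036 genes, placed by log2(mean FPKM + 1) in parental NOMO-1 cells (24 h DMSO, horizontal) and in parental A375 cells (6 h DMSO, vertical), with 2 libraries per mean. Dark red points along the left edge are the 465 A375-restricted genes and dark blue points along the bottom the 557 NOMO-1-restricted genes, while the 8540 shared genes in grey lie along the diagonal.

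The 8 largest differences at each end are described first. SPARC, which encodes a secreted protein that binds collagen, led the A375 side with 2041 and 2245 FPKM in A375 cells, against 0.121 and 0.0709 FPKM in NOMO-1 cells (log2 difference 10.93 ± 0.07 SE, adjusted p = 8.6e-23). IL13RA2, a decoy receptor for interleukin 13, had 905 and 814 FPKM in A375 cells and was listed at 0 in both NOMO-1 libraries. SERPINA3, a secreted protease inhibitor, had 646 and 551 FPKM in A375 cells and was likewise listed at 0 in both NOMO-1 libraries. Over all 18 A375 libraries, clones included, SERPINA3 ranged from 4.94 to 1584 FPKM, with a median of 11.05 FPKM. The other 5 genes named at this end were MAGEA4, MIA, SOX10, PAGE5 and TNC, with log2 differences of 9.17, 8.42, 8.24, 7.85 and 7.71. MAGEA4 and PAGE5 are cancer-testis antigens, MIA is a protein secreted by melanoma cells, and TNC encodes tenascin C of the matrix.

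At the other end stood the calcium-binding protein S100A9 of neutrophils and monocytes. S100A9 had 0.0531 and 0 FPKM in A375 cells, against 884 and 831 FPKM in NOMO-1 cells (log2 difference -9.71 ± 0.08 SE, adjusted p = 5.2e-22). ARHGDIB, a signalling inhibitor of leukocytes, had 0.173 and 0.309 FPKM in A375 cells, against 850.0 and 793 FPKM in NOMO-1 cells. RNASE2, a ribonuclease of eosinophil granules, was listed at 0 in both A375 libraries and had 461 and 441 FPKM in NOMO-1 cells. None of these 3 genes came near an overlap between the lines. CTSG, S100A8, SRGN, CES1 and LCP1 followed with log2 differences of -8.81, -8.72, -8.61, -8.55 and -8.51. CTSG is a granule protease, SRGN the proteoglycan that packs granules, CES1 a carboxylesterase of monocytes and liver, and LCP1 the leukocyte plastin that bundles actin. RNASE2 and CES1 have near-identical copies, so their values may hold reads of those copies.

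Of the 6 regulators of melanocytes and the neural crest, SOX10, MITF, PAX3 and SNAI2 were higher in A375 cells. SOX9 was near 0 in the 4 libraries compared, and TFAP2A overlapped between the lines. SOX10, at chr22:38366692-38383429 (hg19), had 299 and 309 FPKM in A375 cells, against 0.0103 and 0 FPKM in NOMO-1 cells (log2 difference 8.24 ± 0.10 SE, adjusted p = 8.9e-21). MITF, the master regulator of melanocytes, was much lower at 7.85 and 12.5 FPKM in A375 cells, against 1.402 and 1.76 FPKM in NOMO-1 cells (log2 difference 2.08 ± 0.21 SE, adjusted p = 6.8e-08). PAX3 had 4.20 and 6.36 FPKM in A375 cells and was listed at 0 in both NOMO-1 libraries, so it missed the 5 FPKM of the rule in 1 library. For none of these 3 genes did the 4 libraries overlap between the lines. Over more libraries MITF overlapped, with 3.47 to 16.1 FPKM in the 18 A375 libraries and 0.260 to 4.09 FPKM in the 8 NOMO-1 libraries. SOX9, a relative of SOX10 found in less differentiated melanoma, was at 0 and 0.0386 FPKM in A375 cells and listed at 0 in both NOMO-1 libraries. Over all 18 A375 libraries, clones included, SOX9 had a median of 1.65 FPKM and reached 2.71 FPKM. It did not pass 0.00694 FPKM in the 8 NOMO-1 libraries. SNAI2, a transcriptional repressor known from the neural crest, had 3.79 and 4.16 FPKM in A375 cells, against 0.0984 and 0.176 FPKM in NOMO-1 cells. Over all 18 A375 libraries, clones included, SNAI2 ranged from 0.0252 to 7.12 FPKM, with a median of 0.110 FPKM. The 8 NOMO-1 libraries reached 0.772 FPKM, so the lines overlap there. TFAP2A, an AP-2 factor of the neural crest, had 2.38 and 4.24 FPKM in A375 cells, against 2.42 and 1.87 FPKM in NOMO-1 cells, and these values overlap. Its log2 difference of 0.43 passed (adjusted p = 0.025), but not without replicate 2 of A375 (0.11) or replicate 2 of NOMO-1 (0.30).

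The melanosome and pigment markers PMEL, MLANA and TYR were near or at 0 in both lines. PMEL, the scaffold protein of melanosomes, had 0.466 and 0.432 FPKM in A375 cells, against 0.326 and 0.160 FPKM in NOMO-1 cells, and was not called. MLANA, a melanosome antigen, had 0.0508 and 0.176 FPKM in A375 cells, against 0.0365 and 0.190 FPKM in NOMO-1 cells. TYR, tyrosinase itself, was listed at 0 in all 4 libraries, and also in all 26. The melanocyte list of 27 genes had 18 tested, of which 11 were higher and 5 lower in A375 cells, 5 and 3 of them by at least 8-fold, with a median log2 difference of 0.51. LEF1, a transcription factor of the WNT pathway, had 39.9 and 41.9 FPKM in A375 cells, against 0.0320 and 0.0473 FPKM in NOMO-1 cells. GPNMB, a glycoprotein of melanosomes and macrophages, had 27.8 and 32.8 FPKM in A375 cells, against 0.446 and 0.325 FPKM in NOMO-1 cells. RAB27A, which tethers melanosomes and also granules for release, went the other way with 5.26 and 5.53 FPKM in A375 cells, against 123 and 122 FPKM in NOMO-1 cells (log2 difference -4.27). Of the 27 listed genes 10 were below 0.5 FPKM in all 4 libraries. Of the markers that define melanoma cells, SOX10 and the antigens described next were high, while PMEL, MLANA and TYR were near or at 0.

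Surface and cytoplasmic antigens used to recognise melanoma were high. S100B, a calcium-binding protein of neural crest derivatives, had 79.0 and 61.6 FPKM in A375 cells, against 0.402 and 0.0646 FPKM in NOMO-1 cells. CSPG4, the melanoma-associated proteoglycan, had 116 and 130.2 FPKM in A375 cells, against 1.15 and 0.946 FPKM in NOMO-1 cells. MCAM, an adhesion protein first described in melanoma, had 81.4 and 84.8 FPKM in A375 cells, against 0.558 and 0.719 FPKM in NOMO-1 cells. Each of these lay at least 8-fold apart. In the neural crest list of 27 genes 24 of the 26 tested were higher, 13 of them by at least 8-fold, and none was lower, with a median log2 difference of 3.20. S100A6, the most abundant, had 2780.3 and 2164 FPKM in A375 cells, against 164 and 137 FPKM in NOMO-1 cells, and is thus a shared gene that differs in amount. ALDH1A3, a retinaldehyde dehydrogenase of stem-like melanoma cells, had 258 and 336 FPKM in A375 cells, against 0.335 and 0.728 FPKM in NOMO-1 cells. MIA had 487 and 359 FPKM in A375 cells, against 0.301 and 0.158 FPKM in NOMO-1 cells. S100A1 had 417 and 317 FPKM in A375 cells, against 0.897 and 1.17 FPKM in NOMO-1 cells. The genes tested but not called were SOX9 and CRABP2.

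Of 23 receptor kinases and other genes of dedifferentiated melanoma 19 were higher and 1 lower in A375 cells, 9 of them higher by at least 8-fold, with a median log2 difference of 1.73. AXL, the receptor kinase that marks dedifferentiated melanoma, had 50.05 and 59.3 FPKM in A375 cells, against 0.974 and 0.669 FPKM in NOMO-1 cells (log2 difference 4.93 ± 0.10 SE, adjusted p = 9.1e-18). SERPINE2, a secreted inhibitor of thrombin and urokinase, had 2319 and 2314 FPKM in A375 cells, against 23.4 and 17.7 FPKM in NOMO-1 cells. PLAT, tissue plasminogen activator, had 71.6 and 80.6 FPKM in A375 cells, against 0.111 and 0.0637 FPKM in NOMO-1 cells. PLAUR, the urokinase receptor, was the 1 gene lower, with 50.5 and 45.7 FPKM in A375 cells, against 63.5 and 61.8 FPKM in NOMO-1 cells (log2 difference -0.38). It is also known from monocytes.

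Of 31 mesenchymal and matrix genes tested 28 were higher and 3 lower in A375 cells, 15 of them higher by at least 8-fold, with a median of 2.88. VIM, the intermediate filament vimentin, had 1911 and 1681 FPKM in A375 cells, against 198 and 166 FPKM in NOMO-1 cells. TIMP1, an inhibitor of matrix proteases, had 1535 and 1179 FPKM in A375 cells, against 114 and 87.5 FPKM in NOMO-1 cells. TNC had 212 and 232 FPKM in A375 cells, against 0.0491 and 0.0836 FPKM in NOMO-1 cells. The 3 lower genes, chosen for naming after their values were seen, were COL1A2, MMP1 and ZEB2. ZEB2, a zinc-finger repressor, had 4.22 and 7.996 FPKM in A375 cells, against 32.1 and 45.5 FPKM in NOMO-1 cells. Of the partner repressor ZEB1, also outside the naming rule, the levels were 7.59 and 19.7 FPKM in A375 cells, against 2.78 and 3.36 FPKM in NOMO-1 cells, so the pair ran in opposite directions (log2 differences -2.52 for ZEB2 and 1.72 for ZEB1).

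Among 37 adhesion genes tested 29 were higher and 8 lower in A375 cells, 16 of them higher by at least 8-fold and none lower by that much. The shares over all genes tested were 34.6% higher and 39.3% lower, 3.0% and 3.5% by at least 8-fold. PXN, paxillin of focal adhesions, had 181 and 220.3 FPKM in A375 cells, against 34.0 and 32.8 FPKM in NOMO-1 cells. TPM2, a tropomyosin of actin cables, had 165 and 139 FPKM in A375 cells, against 8.02 and 7.61 FPKM in NOMO-1 cells. ACTN4, an actin crosslinker, differed little, with 269 and 424 FPKM in A375 cells, against 205 and 253 FPKM in NOMO-1 cells (log2 difference 0.57, adjusted p = 0.018). Of the integrin beta chains named here, ITGB3 was near 0 in NOMO-1 cells, ITGB2 near 0 in A375 cells, and ITGB1 present in both. ITGB3, the beta chain of the vitronectin receptor and of platelet integrin, had 91.0 and 167 FPKM in A375 cells, against 0.0514 and 0.0992 FPKM in NOMO-1 cells. ITGB2, the beta chain of leukocyte integrins, had 0.161 and 0.0669 FPKM in A375 cells, against 177 and 169 FPKM in NOMO-1 cells. ITGB1, the beta chain used in most tissues, was present in both, with 89.1 and 135 FPKM in A375 cells, against 36.9 and 43.8 FPKM in NOMO-1 cells.

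Cancer-testis antigens, proteins of germ cells that tumours can switch on, were mostly higher in A375 cells than in parental NOMO-1 cells. Of 31 tested 30 were higher in A375 cells and none lower, 21 of them by at least 8-fold, with a median log2 difference of 4.31. Over all genes tested 34.6% were higher, 3.0% by at least 8-fold, and 39.3% lower. MAGEA4 had 603 and 560.3 FPKM in A375 cells, against 0.0170 and 0 FPKM in NOMO-1 cells. MAGEC2 had 90.5 and 86.8 FPKM in A375 cells, against 0.0295 and 0.0142 FPKM in NOMO-1 cells. PRAME, an antigen of melanoma and of some leukaemias, had 90.1 and 83.8 FPKM in A375 cells, against 0.0997 and 0.163 FPKM in NOMO-1 cells (log2 difference 6.28 ± 0.07 SE, adjusted p = 9.2e-21). In tolerant NOMO-1 cells in DMSO, PRAME had 15.5 and 15.8 FPKM. TEX14 was not called, and XAGE1A and XAGE1B were expressed in both lines. XAGE1A, named after its values were seen, had 54.2 and 43.9 FPKM in A375 cells, against 38.5 and 32.4 FPKM in NOMO-1 cells. Many of these genes lie together on the X chromosome: 11 neighbouring genes of the set from RP11-366F6.2 to MAGEA3, chrX:151072902-151938240 (hg19), were all A375-restricted. The highest value of any of the 11 in any of the 8 NOMO-1 libraries was 0.108 FPKM. Members of the MAGEA, CSAG, PAGE, GAGE, XAGE and CTAG families are near-identical, so the split of reads between copies is uncertain, while all of those in the run were near 0 in NOMO-1 cells.

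The regulators of the myeloid lineage formed the opposite picture. SPI1, at chr11:47376410-47400127 (hg19), encodes PU.1 and had 0.0238 and 0.0236 FPKM in A375 cells, against 189 and 153 FPKM in NOMO-1 cells (log2 difference -7.39 ± 0.11 SE, adjusted p = 1.1e-19). IRF8, a factor of monocyte and dendritic cell development, was listed at 0 in both A375 libraries and had 85.0 and 91.6 FPKM in NOMO-1 cells. MYB, which keeps progenitors dividing, had 1.02 and 1.17 FPKM in A375 cells, against 102 and 114 FPKM in NOMO-1 cells. None of the 3 overlapped between the lines in any of the 26 libraries. IKZF1, encoding Ikaros, was listed at 0 in both A375 libraries and had 51.5 and 67.2 FPKM in NOMO-1 cells. GFI1, a transcriptional repressor that granulocyte development needs, had 0.469 and 0.531 FPKM in A375 cells, against 49.6 and 51.4 FPKM in NOMO-1 cells. LMO2, an adaptor of blood transcription complexes, had 0.896 and 0.483 FPKM in A375 cells, against 76.9 and 58.7 FPKM in NOMO-1 cells. FLI1, an ETS factor of blood and endothelium, had 1.02 and 0.967 FPKM in A375 cells, against 25.3 and 28.8 FPKM in NOMO-1 cells.

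The C/EBP factors were unequal. CEBPA, the factor of granulocyte commitment, had 0.236 and close to 0 FPKM in A375 cells, against 39.3 and 29.9 FPKM in NOMO-1 cells. CEBPE, a later granulocyte factor, was listed at 0 in both A375 libraries and had 24.1 and 20.5 FPKM in NOMO-1 cells. CEBPB, used in inflammation in many cell types, had 17.1 and 16.5 FPKM in A375 cells, against 20.8 and 13.1 FPKM in NOMO-1 cells, and was not called (log2 difference 0.02 ± 0.21 SE). RUNX1, a master regulator of blood formation, was in both lines with 9.71 and 16.3 FPKM in A375 cells, against 27.2 and 31.3 FPKM in NOMO-1 cells (log2 difference -1.15, adjusted p = 2.8e-05). Over all 18 A375 libraries, clones included, RUNX1 had a median of 27.8 FPKM and overlapped with the 8 NOMO-1 libraries. Across the list of myeloid factors 20 of 29 tested were lower and 6 higher in A375 cells, 13 and 1 of them by at least 8-fold, with a median of -2.08.

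**Figure D2:**
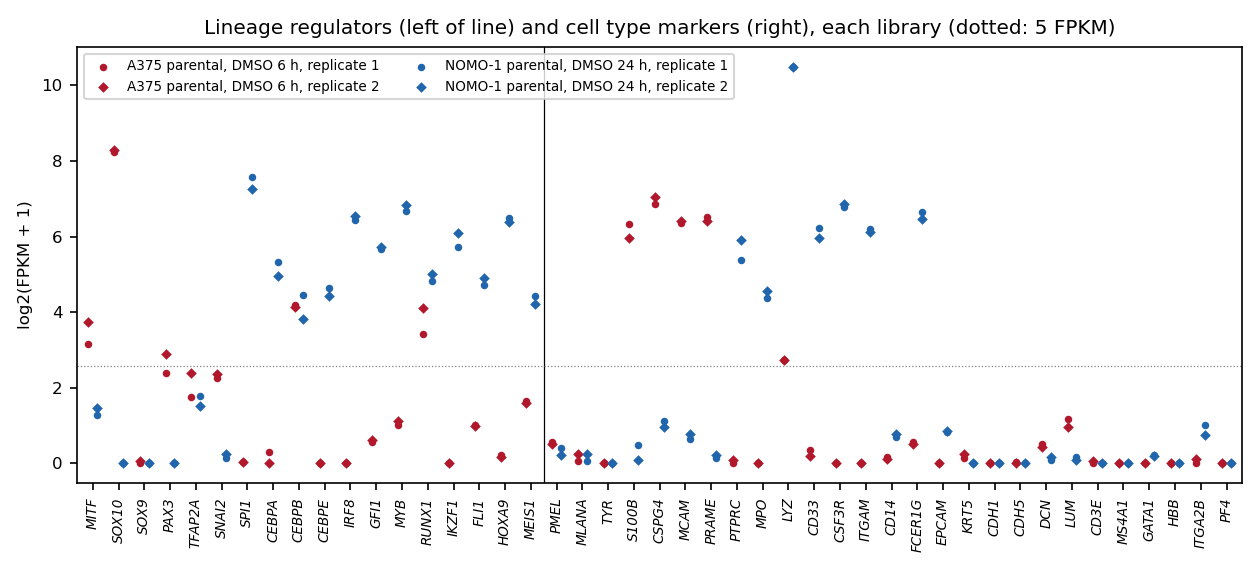
Log2(FPKM + 1) of 18 lineage regulators (left of the line) and of cell type marker genes (right of it), with 1 point per library, red for parental A375 cells in DMSO and blue for parental NOMO-1 cells in DMSO. SOX10 sits at 299 and 309 FPKM in A375 cells and SPI1 at 189 and 153 FPKM in NOMO-1 cells, each near 0 in the other line, while CEBPB points of both lines overlap and the pigment and other-tissue markers lie near 0.

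The HOXA cluster and its partners were lower in A375 cells, but with exceptions. HOXA9, a homeobox factor that KMT2A fusions keep active, had 0.157 and 0.131 FPKM in A375 cells, against 88.2 and 82.7 FPKM in NOMO-1 cells (log2 difference -6.24 ± 0.09 SE, adjusted p = 2.4e-19). MEIS1, its cofactor, had 2.11 and 2.05 FPKM in A375 cells, against 20.3 and 17.4 FPKM in NOMO-1 cells. MEF2C, a factor of myeloid leukaemia stem cells, had 1.95 and 3.97 FPKM in A375 cells, against 73.7 and 99.9 FPKM in NOMO-1 cells. These 3 differed in the same direction, by log2 values of -6.24, -2.69 and -4.50. HOXA10, the neighbour of HOXA9, was higher in NOMO-1 cells but present in both, with 10.8 and 10.1 FPKM in A375 cells, against 52.3 and 46.8 FPKM in NOMO-1 cells. Of the 25 genes listed for the MLL-fusion program 18 were lower and 4 higher in A375 cells, 6 and 2 of them by at least 8-fold, with a median log2 difference of -1.996. HMGA2, a chromatin protein of embryonic and tumour cells, was among the 4, with 39.8 and 59.6 FPKM in A375 cells, against 0.713 and 0.973 FPKM in NOMO-1 cells. EYA1 and ZFPM2, named after their values were seen, were also among them. EYA1, a transcriptional cofactor, had 26.1 and 37.3 FPKM in A375 cells, against 0.236 and 0.263 FPKM in NOMO-1 cells.

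Of 28 granule proteins tested 25 were lower in A375 cells, 21 of them by at least 8-fold, with a median log2 difference of -5.01. Over all genes tested 39.3% were lower, 3.5% by at least 8-fold. LYZ, the lysozyme of granules, had 5.59 and 5.59 FPKM in A375 cells, against 1438.0 and 1438.2 FPKM in NOMO-1 cells, the highest level of the list. CTSG was listed at 0 in both A375 libraries and had 462 and 433 FPKM in NOMO-1 cells. MPO, the myeloperoxidase of primary granules, was listed at 0 in both A375 libraries and had 19.8 and 22.5 FPKM in NOMO-1 cells. LCN2, an iron-sequestering granule protein that epithelia also make, was the 1 gene higher, with 1.68 and 1.22 FPKM in A375 cells and 0 in both NOMO-1 libraries. It was named after its values were seen. Primary granule genes lie next to each other on chromosome 19, where LPPR3, AZU1, PRTN3, ELANE and CFD (chr19:812517-863453, hg19) were all NOMO-1-restricted. AZU1, which encodes azurocidin, had 0 and 0.0177 FPKM in A375 cells, against 167 and 140.1 FPKM in NOMO-1 cells. ELANE, neutrophil elastase, was listed at 0 in both A375 libraries and had 81.3 and 74.6 FPKM in NOMO-1 cells.

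Of 42 receptors of monocytes and other myeloid cells 38 were lower in A375 cells, 29 of them by at least 8-fold, with a median of -3.88. The shares over all genes tested were 39.3% lower and 3.5% lower by at least 8-fold. CD68, a lysosomal protein of macrophages, had 16.1 and 16.8 FPKM in A375 cells, against 301 and 273 FPKM in NOMO-1 cells. TYROBP, the adaptor of activating myeloid receptors, was listed at 0 in both A375 libraries and had 202 and 170.1 FPKM in NOMO-1 cells. CSF3R, the receptor for granulocyte colony-stimulating factor, was listed at 0 in both A375 libraries and had 109.5 and 115.5 FPKM in NOMO-1 cells. CD14, the monocyte receptor for lipopolysaccharide, was low in both lines, with 0.114 and 0.0807 FPKM in A375 cells, against 0.628 and 0.723 FPKM in NOMO-1 cells. Of the markers that define myeloid cells, PTPRC, SPI1, CEBPA, LYZ, CD33, CSF3R, ITGAM and FCER1G were thus high in the NOMO-1 libraries, while CD14 was near 0. The 2 receptors higher in A375 cells, named after their values were seen, were TLR4 and FCGR2A. TLR4, the signalling receptor for lipopolysaccharide, had 35.0 and 63.0 FPKM in A375 cells, against 4.44 and 7.07 FPKM in NOMO-1 cells (log2 difference 2.86 ± 0.29 SE, adjusted p = 1.0e-07). FCGR2A, a low-affinity Fc receptor, had 23.3 and 23.1 FPKM in A375 cells, against 14.8 and 14.5 FPKM in NOMO-1 cells.

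All 6 genes of the phagocyte NADPH oxidase, which makes superoxide, were lower in A375 cells, 5 of them by at least 8-fold. CYBB, the catalytic subunit, had 0 and 0.0211 FPKM in A375 cells, against 71.7 and 80.5 FPKM in NOMO-1 cells. CYBA, its membrane partner, which other oxidases also use, was present in both lines with 77.8 and 62.5 FPKM in A375 cells, against 318 and 268 FPKM in NOMO-1 cells. The organisers NCF1 and NCF4 had log2 differences of -7.71 and -6.71, and NCF1 has near-identical pseudogenes. Of 38 signalling genes used by all blood cells 37 were lower, 34 of them by at least 8-fold, with a median of -5.20. LAPTM5, a lysosomal protein of leukocytes, had 0.676 and 0.615 FPKM in A375 cells, against 441 and 417 FPKM in NOMO-1 cells. PTPRC, the leukocyte phosphatase CD45, had 0.00663 and 0.0586 FPKM in A375 cells, against 40.4 and 59.4 FPKM in NOMO-1 cells. The 1 gene not called was CD34, near 0 in both lines.

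Restricted genes also lay side by side elsewhere. Along the chromosomes there were 12 runs of at least 4 neighbouring genes of the set restricted to the same line, 2 to A375 and 10 to NOMO-1. Besides the granule genes, the NOMO-1 runs held 5 MS4A genes from MS4A6A to MS4A14 on chromosome 11, the ribonuclease genes RNASE6, RNASE3 and RNASE2 on chromosome 14, and GOLGA8 copies on chromosome 15. They also held the metallothioneins MT1L, MT1E, MT1M and MT1F on chromosome 16, the CD300 receptors on chromosome 17, and on chromosome 19 the LILRA and FCAR genes and the SIGLEC receptors, in a pair of runs. MT1E, a metal-binding protein, was listed at 0 in both A375 libraries and had 261 and 223 FPKM in NOMO-1 cells. The MS4A, RNASE, GOLGA8, MT1, CD300, SIGLEC and LILR families hold similar copies, so values of single copies are uncertain.

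One further run, MPO to MIR142 (chr17:56347216-56493127, hg19), ends with a microRNA known from blood cells. The deposited row for MIR142 spans chr17:56408244-56409869 and was listed at 0 in both A375 libraries, with 17.3 and 13.6 FPKM in NOMO-1 cells (log2 difference -4.03 ± 0.09 SE, adjusted p = 2.9e-17). It did not pass 0.0182 FPKM in any of the 18 A375 libraries, and between 13.6 and 43.5 FPKM in all 8 NOMO-1 libraries. Libraries of long RNA do not measure the mature molecules, which are shown here because this locus is the only microRNA gene in a run. The sequences are RefSeq's (GRCh38.p14, minus strand, chr17:58331245-58331267 for the 3p and chr17:58331283-58331303 for the 5p molecule), and capitals mark the seed, bases 2 to 8, which pairs with targets.
hsa-miR-142-3p: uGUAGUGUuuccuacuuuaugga
hsa-miR-142-5p: cAUAAAGUagaaagcacuacu

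Antigen presentation by HLA class II set the parental lines apart by little. All 11 genes of that list that belong to the set were shared, and none of the 12 tested reached 8-fold: 8 were higher and 3 lower in A375 cells, with a median log2 difference of 0.66. CD74, the invariant chain that guides class II molecules, had 1406 and 1224 FPKM in A375 cells, against 827 and 724 FPKM in NOMO-1 cells. HLA-DRA, the constant chain of HLA-DR, had 422 and 374.6 FPKM in A375 cells, against 508 and 467 FPKM in NOMO-1 cells (log2 difference -0.29, adjusted p = 0.016). HLA-DPA1 had 241 and 229 FPKM in A375 cells, against 161 and 141 FPKM in NOMO-1 cells. The calls of 3 lower genes drop to 1 without replicate 1 of NOMO-1. HLA genes are highly variable and similar to each other, so reads may be lost or shared between them.

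Leukocytes use their own version of many widely expressed proteins. Of 32 pairs of a blood-cell gene and a family member used more widely, 31 could be tested, and INPP5D with a missing value could not. The blood-cell member was lower in A375 cells in 30 pairs, 27 of them by at least 8-fold. The other member was higher in 20 pairs, 8 of them by at least 8-fold, lower in 4 and not called in 7. In 20 pairs the blood-cell member was lower and the other higher, and in 8 of these both differences reached 8-fold. Both were lower in 3 pairs, and only in the pair of RUNX3 and RUNX2 was the blood-cell member the higher one, a call lost without replicate 2 of either line. The pairs are textbook examples and were chosen with earlier results of these data known. Their shares therefore describe these pairs only and are no test of gene families at large. The roles were given when the pairs were listed and are loose for some. LMNB1, counted as a blood-cell gene, had 92.9 and 99.7 FPKM in A375 cells.

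The 8 fully opposed pairs act largely on actin and its regulators. LCP1, leukocyte plastin, had 0.0810 and 0.163 FPKM in A375 cells, against 393 and 425 FPKM in NOMO-1 cells. PLS3, the plastin of other tissues, had 24.9 and 28.1 FPKM in A375 cells, against 0 and 0.00864 FPKM in NOMO-1 cells. The plastins thus exchanged places without overlap in these libraries (log2 differences -8.51 for LCP1 and 4.77 for PLS3). In tolerant NOMO-1 cells in DMSO, however, PLS3 had 4.68 and 5.60 FPKM. HCLS1, a cortactin relative of leukocytes, was listed at 0 in both A375 libraries and had 208 and 181 FPKM in NOMO-1 cells. CTTN, cortactin, which stabilises branched actin, had 80.3 and 76.8 FPKM in A375 cells, against 0.323 and 0.315 FPKM in NOMO-1 cells. Over the 8 NOMO-1 libraries CTTN reached 9.31 FPKM. In parental cells under CPI203 its log2 difference was 2.82, against 5.91 in DMSO. The WAVE complex subunits were also opposed in the libraries compared. NCKAP1L had 0.00861 and 0 FPKM in A375 cells, against 95.2 and 105 FPKM in NOMO-1 cells, and NCKAP1 had 26.7 and 38.8 FPKM in A375 cells, against 0 and 0.00617 FPKM in NOMO-1 cells. The Rac activators followed: DOCK2 had 0.320 and 0.674 FPKM in A375 cells, against 90.6 and 89.1 FPKM in NOMO-1 cells, and DOCK1 had 13.1 and 17.7 FPKM in A375 cells and was listed at 0 in both NOMO-1 libraries. The other 4 opposed pairs were MYO1F and MYO1E (myosins), CD53 and CD9 (tetraspanins), FERMT3 and FERMT2 (kindlins, which activate integrins) and FMNL1 and FMNL2 (formins).

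In the pairs of RAC2, ARHGDIB and VAV1 the widely used member was present in both lines, while the blood-cell member was near 0 in A375 cells. This did not hold for every pair, since CORO1A had 6.87 and 6.29 FPKM and LYN 5.90 and 8.71 FPKM in A375 cells. RAC2, the Rac GTPase of blood cells, had 0.106 and 0.141 FPKM in A375 cells, against 284 and 263 FPKM in NOMO-1 cells. RAC1 had 102 and 93.0 FPKM in A375 cells, against 91.5 and 73.8 FPKM in NOMO-1 cells (log2 difference 0.25, adjusted p = 0.043), a call that 5 of the alternative fits lose. ARHGDIA, the common relative of ARHGDIB, had 228 and 227 FPKM in A375 cells, against 228 and 190.1 FPKM in NOMO-1 cells, and was not called (log2 difference 0.13 ± 0.14 SE). VAV1, a signalling protein of blood cells, was listed at 0 in both A375 libraries and had 45.8 and 44.2 FPKM in NOMO-1 cells, while VAV2 had 11.3 and 15.4 FPKM in A375 cells, against 13.1 and 12.6 FPKM in NOMO-1 cells. VAV2 was not called (log2 difference 0.03 ± 0.16 SE). With untreated A375 cells in place of those in DMSO, the log2 differences of ARHGDIA and VAV2 turned to -0.44 and -0.41. Both lamins were present in both lines. LMNB1, of the rapidly dividing cell nucleus, had 92.9 and 99.7 FPKM in A375 cells, against 282 and 274 FPKM in NOMO-1 cells, and LMNA had 569 and 478 FPKM in A375 cells, against 84.0 and 70.5 FPKM in NOMO-1 cells.

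**Figure D3:**
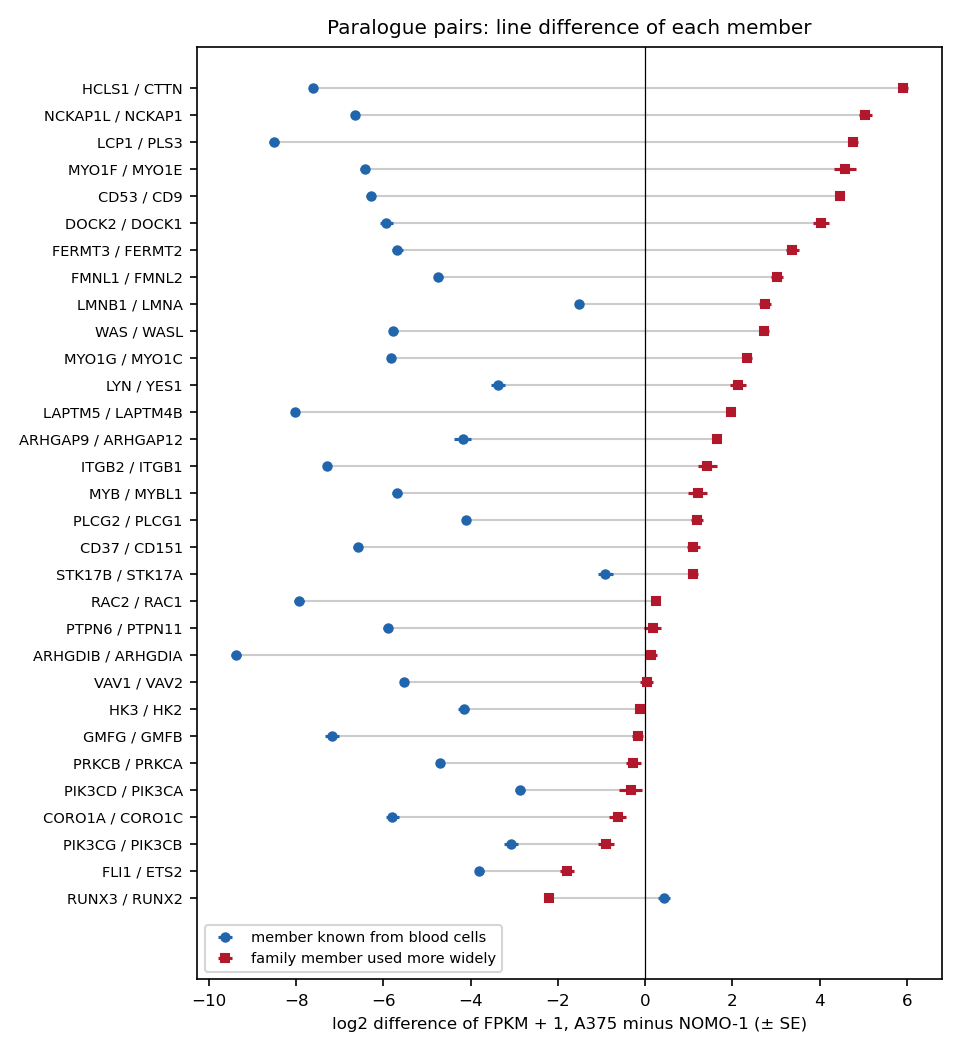
Log2 difference of FPKM + 1, A375 minus NOMO-1 (horizontal, ± SE from the limma fit), for both members of 31 pairs, blue for the gene known from blood cells and red for the family member used more widely. Blue points lie left of 0 in 30 pairs, and red points lie right of 0 with a call in 20 pairs.

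The sequence before the start of some of these genes is shown with the letters GAGGAAGT, a well known motif of PU.1, the product of SPI1. Windows of 250 bases before the start came from RefSeq (GRCh38.p14), written 5′ to 3′ on the strand of the gene, and capitals mark GAGGAAGT on either strand. These letters stand in 2.13% of all 27305 windows. Windows were found for 69.2% of the A375-restricted genes and 62.5% of the NOMO-1-restricted genes, which is under 80%, so a comparison of the classes by their letters is void and is not given. A match is a description, not a site of binding, and no binding was measured. The genes shown were picked after their matches were known, and most windows found for NOMO-1-restricted genes do not hold the letters, so the windows are not typical of the class. The windows are those of LCP1 (chr13:46182178-46182427, minus strand), its counterpart PLS3 (chrX:115560924-115561173, plus strand), VAV1 (chr19:6772458-6772707, plus strand) and TYROBP (chr19:35908296-35908545, minus strand). The last is that of TLR4 (chr9:117704153-117704402, plus strand).
LCP1: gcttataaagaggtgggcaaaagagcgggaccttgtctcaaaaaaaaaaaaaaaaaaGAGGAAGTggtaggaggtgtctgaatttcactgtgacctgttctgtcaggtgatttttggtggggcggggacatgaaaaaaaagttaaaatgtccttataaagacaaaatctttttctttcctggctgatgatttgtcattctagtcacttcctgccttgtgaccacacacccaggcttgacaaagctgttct
PLS3: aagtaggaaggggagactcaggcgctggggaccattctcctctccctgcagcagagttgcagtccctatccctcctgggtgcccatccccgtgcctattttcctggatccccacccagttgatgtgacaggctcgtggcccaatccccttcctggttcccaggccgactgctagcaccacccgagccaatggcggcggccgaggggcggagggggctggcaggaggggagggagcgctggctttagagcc
VAV1: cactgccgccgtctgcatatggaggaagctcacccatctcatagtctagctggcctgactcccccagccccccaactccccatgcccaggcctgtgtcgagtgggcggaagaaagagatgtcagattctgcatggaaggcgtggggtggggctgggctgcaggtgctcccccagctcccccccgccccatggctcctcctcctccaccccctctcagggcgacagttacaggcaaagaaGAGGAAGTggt
TYROBP: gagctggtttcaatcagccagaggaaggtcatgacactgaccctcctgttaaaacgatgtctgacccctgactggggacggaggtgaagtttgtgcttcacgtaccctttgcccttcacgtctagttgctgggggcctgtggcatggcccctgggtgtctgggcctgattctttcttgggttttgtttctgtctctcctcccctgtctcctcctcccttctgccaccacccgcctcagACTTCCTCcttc
TLR4: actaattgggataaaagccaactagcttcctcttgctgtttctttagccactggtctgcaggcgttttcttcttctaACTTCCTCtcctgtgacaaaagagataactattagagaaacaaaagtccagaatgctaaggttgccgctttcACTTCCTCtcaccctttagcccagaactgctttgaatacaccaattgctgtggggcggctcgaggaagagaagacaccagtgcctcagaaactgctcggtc

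Counted from 1 at the 5′ end, the letters begin at position 58 in LCP1 and 240 in VAV1, and on the other strand at 239 in TYROBP. PLS3 has no match in this window. TLR4 has 2 matches on the other strand, at positions 78 and 150. Nothing about PU.1 is drawn from these matches.

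On the short arm of chromosome 9, 10 neighbouring genes of the set were all A375-restricted. They run from FOCAD to C9orf72 (chr9:20658307-27573864, hg19). MTAP, an enzyme of methionine salvage, had 136 and 178 FPKM in A375 cells and was listed at 0 in both NOMO-1 libraries. PLAA, a ubiquitin-binding protein used widely, had 35.6 and 46.4 FPKM in A375 cells, against 0.0338 and 0 FPKM in NOMO-1 cells. KLHL9, an adaptor of a ubiquitin ligase, had 15.5 and 21.5 FPKM in A375 cells and was listed at 0 in both NOMO-1 libraries. CAAP1, TUSC1, IFT74 and C9orf72 followed the same pattern, as did the non-coding RP11-408N14.1 and RP11-399D6.2. The highest value of any of the 10 genes in any of the 8 NOMO-1 libraries, tolerant cells included, was 0.0436 FPKM. The files annotate 95 genes in the stretch. Of these 19 were at 1 FPKM or more in both A375 libraries, and 16 of the 19 were below 0.5 FPKM in all 8 NOMO-1 libraries, 8 of them at exactly 0. The 3 genes of the stretch at 0.5 FPKM or more in any NOMO-1 library, KHSRPP1, UBA52P6 and RP11-370B11.1, are annotated as processed pseudogenes, which resemble genes elsewhere.

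The genes at the edges were expressed in both lines, but not equally. From HAUS6 to MLLT3, the genes of the set shown before the run were all lower in NOMO-1 cells. PLIN2 and DENND4C among them were named after their values were seen. PLIN2 had 193 and 171 FPKM in A375 cells, against 4.92 and 5.05 FPKM in NOMO-1 cells. DENND4C had 8.84 and 13.6 FPKM in A375 cells, against 1.42 and 1.73 FPKM in NOMO-1 cells. RPS6, a ribosomal protein, had 2789.9 and 2180 FPKM in A375 cells, against 489 and 413 FPKM in NOMO-1 cells. MLLT3, the last gene of the set before the run and the fusion partner of KMT2A in this line, had 12.8 and 13.1 FPKM in A375 cells, against 5.79 and 4.05 FPKM in NOMO-1 cells. On the far side ACO1 had 9.02 and 10.1 FPKM in A375 cells, against 6.22 and 6.23 FPKM in NOMO-1 cells. CDKN2A, the tumour suppressor locus within the stretch and below the 5 FPKM of the rule, was added after its values were seen. It had 1.22 and 1.37 FPKM in A375 cells, against 0.0433 and 0 FPKM in NOMO-1 cells. Whether the stretch is present in the genome of the NOMO-1 cells was not tested, since RNA levels alone were measured.

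**Figure D4:**
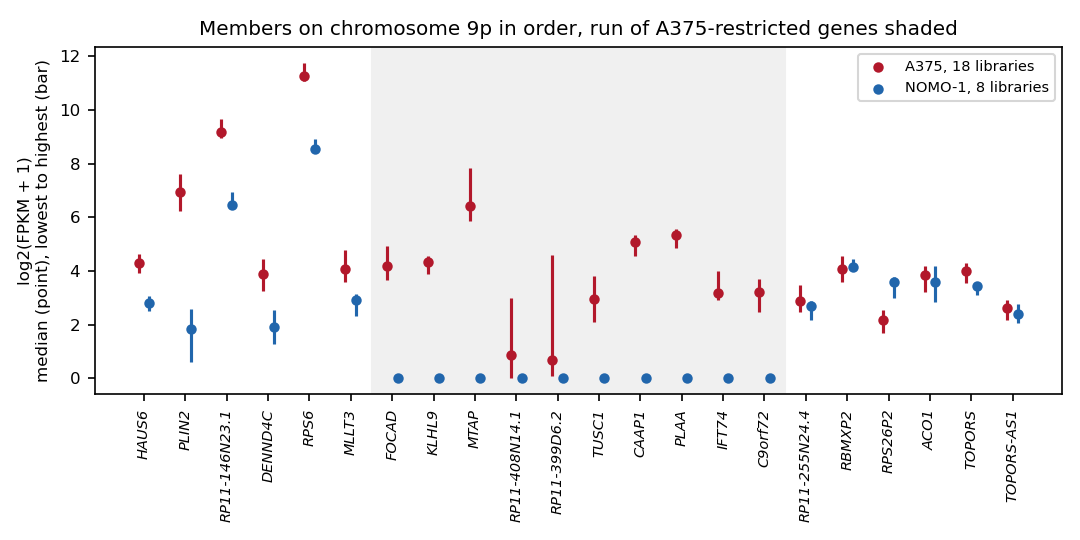
Genes of the set on the short arm of chromosome 9 in order of position (horizontal), with the median (point) and the lowest to highest value (bar) of log2(FPKM + 1) over 18 A375 libraries in red and 8 NOMO-1 libraries in blue. In the shaded run of 10 genes every NOMO-1 value is at or below 0.0436 FPKM, while RPS6, MLLT3 and ACO1 outside it are expressed in both lines.

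Single markers of other tissues were low in the 4 libraries, while some genes of the wider lists were not. CDH1, KRT5 and EPCAM of epithelium, CDH5 of endothelium, CD3E and MS4A1 of lymphocytes, and GATA1, HBB and PF4 of the red cell and platelet lineages were all below 1 FPKM in the 4 libraries. ITGA2B, an integrin chain of the platelet lineage, had 0.00949 and 0.0785 FPKM in A375 cells, against 1.002 and 0.675 FPKM in NOMO-1 cells. LUM, a matrix protein of fibroblasts, had 1.26 and 0.931 FPKM in A375 cells, against 0.126 and 0.0585 FPKM in NOMO-1 cells. Summed levels of the epithelial list were 149 and 122 FPKM in A375 cells, against 37.3 and 30.6 FPKM in NOMO-1 cells, of which KRT18 and KRT8 made up most. KRT18, a keratin also found in cultured mesenchymal lines, had 99.7 and 82.1 FPKM in A375 cells, against 20.2 and 14.3 FPKM in NOMO-1 cells. Of the 11 epithelial genes tested 6 were higher and 4 lower, and of the 11 erythroid and megakaryocytic genes 1 was higher and 8 lower, the higher one being ITGB3. Of 11 lymphoid genes 3 were higher and 4 lower, and of 7 fibroblast and endothelial genes 4 were higher and 2 lower. In the lymphoid list 1 gene was lower by at least 8-fold, and so was 1 in the fibroblast and endothelial list. Over all genes tested 34.6% were higher and 39.3% lower, and with so few genes per list nothing is read from these counts. The lower lymphoid genes include CD3D, named after its values were seen, with 0.0727 and 0 FPKM in A375 cells, against 11.98 and 9.30 FPKM in NOMO-1 cells. Summed levels were 7.47 and 9.94 FPKM in A375 cells, against 51.8 and 56.1 FPKM in NOMO-1 cells for the lymphoid genes, and 12.7 and 11.9 FPKM in A375 cells, against 26.1 and 20.6 FPKM in NOMO-1 cells for fibroblast and endothelial genes. The erythroid and megakaryocytic genes summed to 156 and 251 FPKM in A375 cells, mostly ITGB3 and TFRC, against 29.6 and 109 FPKM in NOMO-1 cells, where TFRC is missing from replicate 1. The part of these markers in the line differences was not tested.

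The line differences were then read in libraries that the comparison in DMSO does not use. In parental cells under CPI203, 35.5% of all genes tested were higher and 38.8% lower in A375 cells, 2.34% and 2.53% of them by at least 8-fold. There, 464 of the 465 A375-restricted genes were higher, and 543 of the 556 NOMO-1-restricted genes tested were lower, with 1 higher. At 8-fold the counts were 263 and 274. In tolerant cells in DMSO, comparing the mean of A375 clones 1 and 4 with tolerant NOMO-1 cells, 39.2% of all genes tested were higher and 39.7% lower, 3.63% and 2.98% of them by at least 8-fold. Here 449 of the A375-restricted genes were higher and 7 lower, and 484 of the NOMO-1-restricted genes were lower and 13 higher. The genes were chosen for a gap between the same lines, so these counts describe how many kept it and are no test against genes at large.

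Restriction was stricter in some genes than in others. All 18 A375 libraries lay above all 8 NOMO-1 libraries for 426 of the 465 A375-restricted genes and for 16.7% of all genes tested. All 18 lay below all 8 for 437 of the 557 NOMO-1-restricted genes and for 17.5% of all genes tested. Since the 4 libraries that define the classes are among the 26, these counts are set in part by the rule and nothing is read from them. At the level of the rule, 162 A375-restricted genes kept 5 FPKM or more in all 18 A375 libraries and less than 0.5 FPKM in all 8 NOMO-1 libraries. The reverse held for 132 NOMO-1-restricted genes in the 8 and 18 libraries. A level of 0 in all libraries of the other line was listed for 83 A375-restricted and 57 NOMO-1-restricted genes. SOX10 lay between 126 and 318 FPKM in the 18 A375 libraries and at 0.105 FPKM or less in the 8 NOMO-1 libraries. SPI1 lay at 0.135 FPKM or less in the 18 A375 libraries and between 33.9 and 189 FPKM in the 8 NOMO-1 libraries. These regulators did not overlap between the lines in any library. S100A9 did so too, with at most 0.194 FPKM in the A375 libraries and 556 to 1406 FPKM in the NOMO-1 libraries.

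Other restricted genes changed in the tolerant cells, and were picked for naming after these values were seen. Over all genes tested, the line difference in tolerant cells differed from that in parental cells for 52.3%, so such a change is common. Among the A375-restricted genes 17 had a mean of 5 FPKM or more over both tolerant NOMO-1 libraries in DMSO. SPARC had 229 and 214 FPKM in tolerant NOMO-1 cells, against 0.121 and 0.0709 FPKM in parental NOMO-1 cells. HOXD13, a homeobox gene of limb ends, had 78.6 and 78.4 FPKM in tolerant NOMO-1 cells, against 0.131 and 0.164 FPKM in parental NOMO-1 cells. POPDC3, a membrane protein of the Popeye family, had 26.5 and 28.2 FPKM in tolerant NOMO-1 cells, against 0.117 and 0.206 FPKM in parental NOMO-1 cells. SPARC, with the largest positive difference in parental cells, was therefore expressed in tolerant NOMO-1 cells as well. Among the NOMO-1-restricted genes 104 had a mean below 0.5 FPKM over both tolerant NOMO-1 libraries in DMSO. HOXA9 had 0 and 0.0327 FPKM in tolerant NOMO-1 cells, against 88.2 and 82.7 FPKM in parental NOMO-1 cells. RNASE6, a ribonuclease of leukocytes, had 0.0491 and 0.0983 FPKM in tolerant NOMO-1 cells, against 141 and 114 FPKM in parental NOMO-1 cells.

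The tolerant cells also differed in whole lists, which are described here after their values were seen. HLA class II genes, shared between the parental lines, were near 0 in tolerant NOMO-1 cells. CD74 had 0.639 and 1.21 FPKM in tolerant NOMO-1 cells, against 827 and 724 FPKM in parental NOMO-1 cells. HLA-DRA had 0.0203 and 0.102 FPKM in tolerant NOMO-1 cells, against 508 and 467 FPKM in parental NOMO-1 cells. CIITA, the activator of class II genes, had 0.299 and 0.239 FPKM in tolerant NOMO-1 cells, against 8.45 and 10.1 FPKM in parental NOMO-1 cells. In the A375 clones CD74 stayed between 826 and 1111 FPKM in DMSO. All 12 genes of the list were higher in the A375 clones than in tolerant NOMO-1 cells, 11 of them by at least 8-fold, with a median log2 difference of 5.41, against 0.66 in parental cells.

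Myeloid genes of the tolerant NOMO-1 cells lay on either side of their parental levels. LYZ had 45.9 and 43.3 FPKM in tolerant NOMO-1 cells, against 1438.0 and 1438.2 FPKM in parental NOMO-1 cells. PTPRC had 1.13 and 0.823 FPKM in tolerant NOMO-1 cells, against 40.4 and 59.4 FPKM in parental NOMO-1 cells. MPO went the other way, with 436 and 357 FPKM in tolerant NOMO-1 cells, against 19.8 and 22.5 FPKM in parental NOMO-1 cells. Lysozyme and CD45 were thus lower and myeloperoxidase higher, with no overlap between the libraries. ELANE had 809.99 and 701 FPKM in tolerant NOMO-1 cells, against 81.3 and 74.6 FPKM in parental NOMO-1 cells. CSF3R had 1139 and 1065 FPKM in tolerant NOMO-1 cells, against 109.5 and 115.5 FPKM in parental NOMO-1 cells. Of the 28 granule genes tested 25 were lower in the A375 clones than in tolerant NOMO-1 cells, 20 of them by at least 8-fold and none higher. Of the 38 genes of all blood cells 38 were lower, 22 of them by at least 8-fold. The median of the blood-cell list was -3.72 in tolerant cells, against -5.20 in parental cells. The list of the MLL-fusion program was mixed in tolerant cells, with 13 genes higher and 10 lower and a median of 0.26, against -1.996 in parental cells.

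In the A375 clones, counts were taken over both clones and so over more libraries than in NOMO-1 cells, and the counts of the lines are not compared. Means below 0.5 FPKM in both clones in DMSO were found for 15 A375-restricted genes, among them neural crest genes. TFAP2B, an AP-2 factor of the neural crest, had 0.311 and 0.333 FPKM in clone 1 and 0.0771 and 0.122 FPKM in clone 4, against 45.8 and 58.8 FPKM in parental A375 cells. RXRG, a retinoid receptor that marks neural crest stem-like melanoma cells, had 0.468 and 0.384 FPKM in clone 1 and 0.297 and 0.218 FPKM in clone 4, against 50.4 and 46.7 FPKM in parental A375 cells. Both were thus near 0 in each clone. In the other direction 8 NOMO-1-restricted genes had a mean of 5 FPKM or more in at least 1 clone. For 3 of them, CD33, CCL5 and TOR4A, this held in both clones. CD33, a sialic acid receptor of myeloid cells, had 25.2 and 25.1 FPKM in clone 1 and 35.0 and 24.3 FPKM in clone 4, against 0.270 and 0.149 FPKM in parental A375 cells. CCL5, a chemokine, had 5.28 and 5.87 FPKM in clone 1 and 24.1 and 17.04 FPKM in clone 4, against 0.0493 and 0.0473 FPKM in parental A375 cells. Because CD33 is one of the myeloid markers used above, the rest of that list was looked at: SPI1, LYZ, MPO, CSF3R, PTPRC and ITGAM stayed below 12.8 FPKM in all 18 A375 libraries, and all of these but LYZ below 0.7 FPKM.

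**Figure D5:**
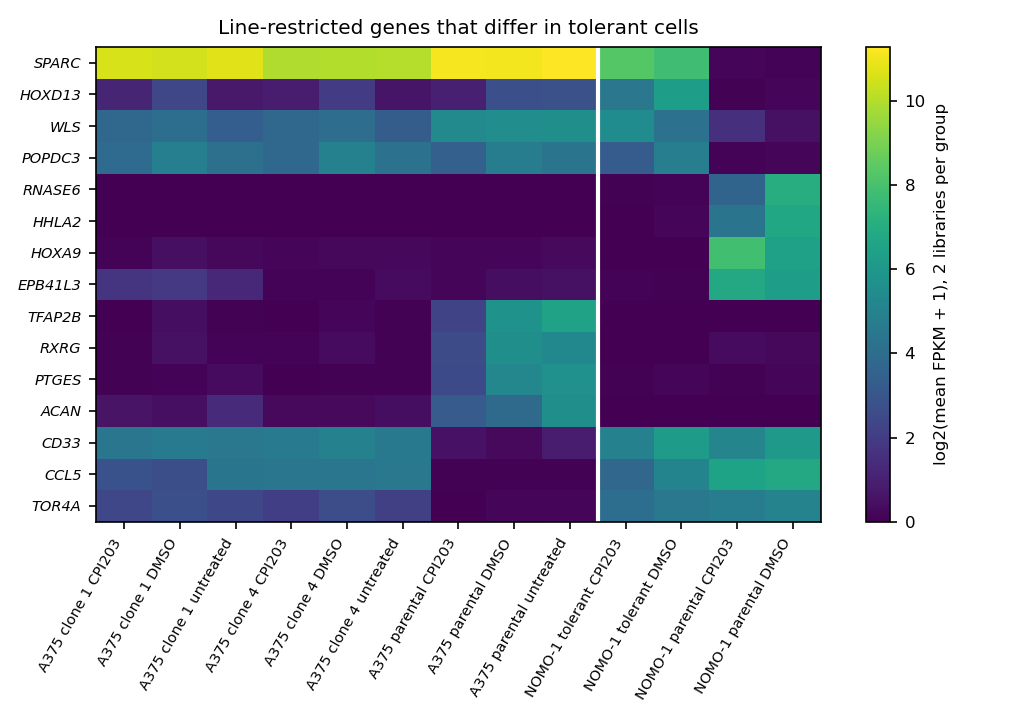
Log2(mean FPKM + 1) of 15 line-restricted genes chosen after their values were seen (rows) in the 13 groups of 2 libraries (columns), with A375 groups left and NOMO-1 groups right of the white line. The SPARC row is bright in A375 and in tolerant NOMO-1 cells but dark in parental NOMO-1 cells, while HOXA9 is bright only in parental NOMO-1 cells and CD33 is bright in clones 1 and 4 and in all NOMO-1 groups.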

How the data were processed

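Total RNA, isolated with TRIzol or an RNeasy kit per the labels' protocols, was sequenced from 26 libraries. The authors deposited 1 table of FPKM values per gene. Per the submitters' processing notes the tools were TopHat 1.4.1, hg19 and Cufflinks. Settings and gene annotation were not given in the sources used here. This table holds no counts, so depth is unknown, and FPKM values of low genes are imprecise. Samples were grouped by title; some clone libraries carry the word parental in another label.

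Values were log2(FPKM + 1), so differences of low genes are understated. Genes with no missing value and at least 1 FPKM in 2 or more libraries (19370) went into a limma fit (version 3.58.1, R 4.3.3, trend and robust options) with 1 mean per group over all 26 libraries (13 residual degrees of freedom) and Benjamini-Hochberg adjustment over all genes tested. Each adjusted p in the text comes from this fit, and a gene was called at an adjusted p below 0.05. Values after ± are limma's standard errors. The script was tested on simulated data. Of 63129 genes 36 had missing values. A symbol on several rows was taken from the row with the highest mean on a primary chromosome.

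A few genes of the lists are not reported here. Genes named are 18 lineage regulators, the 8 largest differences at each end without overlap, up to 5 genes per list with the highest level, the family pairs, and genes in runs. The 17 lists, the pairs and the rule itself were chosen with earlier results of these data known. The fit reported has no replicate block, since the labels give the replicate numbers no shared source; a fit with the block is an alternative. Alternatives were the pseudocount, the filter, scaling, the limma options, the libraries fitted and each replicate left out; a correction for transcript length and GC content (GENCODE 29), the same alternatives for the counts under CPI203 and in tolerant cells, and the contrast between line differences were added after the data were seen. Coordinates of genes are those deposited; promoter and microRNA sequences are RefSeq's for GRCh38.p14.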

Additional observations from a re-analysis of the deposited data

Results flagged for a closer look

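The line difference in tolerant cells was set against that in parental cells for 15 restricted genes. In tolerant cells it is the mean of A375 clones 1 and 4 minus tolerant NOMO-1, in DMSO. The 15 genes were picked among those whose levels in tolerant cells had crossed the 5 or 0.5 FPKM limits, so no p is given for them. Restricted genes outside these 15 changed as well, among them SERPINA3 (-6.08) and CES1 (5.53). Each was singled out because the 2 line differences themselves differed in the fit across all genes, as they did for 52.3% of all genes tested. Values are log2, tolerant minus parental, ± SE, and a negative value means that A375 cells moved down relative to NOMO-1 cells.

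In 4 A375-restricted genes the tolerant NOMO-1 cells reached 5 FPKM or more. The change was -8.49 ± 0.10 for SPARC, -6.67 ± 0.11 for HOXD13, -5.20 ± 0.17 for WLS, which encodes the carrier of WNT proteins, and -4.45 ± 0.14 for POPDC3. In 4 NOMO-1-restricted genes the tolerant NOMO-1 cells were below 0.5 FPKM. Here it was 6.90 ± 0.12 for RNASE6, 6.56 ± 0.09 for HHLA2, an immune ligand of the B7 family, 6.55 ± 0.13 for HOXA9 and 6.77 ± 0.15 for EPB41L3, a protein that links membrane and cytoskeleton.

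In 4 A375-restricted genes both clones were below 0.5 FPKM, with changes of -5.46 ± 0.11 for TFAP2B, -4.97 ± 0.09 for RXRG, -5.15 ± 0.14 for PTGES, which makes prostaglandin E, and -3.53 ± 0.13 for ACAN, a matrix proteoglycan. In 3 NOMO-1-restricted genes both clones were at 5 FPKM or more, with changes of 4.38 ± 0.17 for CD33, 5.21 ± 0.17 for CCL5 and 3.05 ± 0.17 for TOR4A.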

How the results depend on the processing

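The set rests on 2 libraries per line, 1 line per lineage and a table without counts. Line, time in DMSO, medium and library series cannot be told apart. Genes near 0 FPKM carry little information, and the understatement of low genes moves with the pseudocount. In the DMSO comparison the counts of all genes and of the set stayed within 1.5 times of their reported values under the alternatives run, and calls split 45.1% to 50.6% toward A375, against 46.8% as reported. With the replicate number as a block, 14313 genes were called, against 14303; the block changed no count by over 1.5 times, and deviations of same-numbered libraries correlated at 0.578 for the 2 groups compared and between -0.717 and 0.706 over all 78 pairs of groups, so that the numbers do not pair the libraries throughout. Of 92 named genes under 14 settings, 1267 results were on the same side, 13 lost and 4 gained the call, and 2 reversed: with untreated A375 cells, ARHGDIA stood at -0.44 and VAV2 at -0.41.

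Counts of the smaller lists moved more. With a pseudocount of 0.1, 1 gene of all blood cells and 2 erythroid genes were higher, and genes of the set apart by 8-fold were 704 higher and 810 lower under CPI203 and 951 higher in tolerant cells. Without a filter, 1 gene of all blood cells, 3 erythroid and 8 fibroblast genes were higher and 9 lymphoid lower. With a filter at 5 FPKM, which tests fewer genes, 3 myeloid factors, 0 granule, 0 lymphoid and 2 fibroblast genes were higher, and 2 erythroid, 0 epithelial and 1 fibroblast genes lower. With only the 4 libraries compared, 1 lymphoid and 1 fibroblast gene were higher, and 4 erythroid, 2 epithelial and 1 fibroblast gene lower. With untreated A375 cells, 2 erythroid genes were higher. A375-restricted genes numbered 267 at a level of 10 FPKM and 283 with a limit of 0.1 FPKM. Beyond the construction of these settings, the cause was not tested.

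Leaving out 1 replicate at a time, 13084 to 13751 genes were called, with 3782 to 4070 of the set higher and 4702 to 5012 lower. HLA class II genes lower numbered 1 to 3 (1 without replicate 1 of NOMO-1), erythroid genes higher 1 to 2 (2 without replicate 2 of A375) and epithelial genes lower 2 to 5 (2 without replicate 1 of NOMO-1).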

Other observations

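Shared genes also held large differences in amount, and these were picked after their values were seen. Of the 8540 shared genes 8526 were tested, and 41 of these were higher and 34 lower in A375 cells by at least 8-fold. Over all 19370 genes tested the counts were 582 (3.0%) and 678 (3.5%). The 5 FPKM required in all 4 libraries limits such differences among shared genes, so nothing is read from these counts. S100A13, which helps release of growth factors, had 698 and 491 FPKM in A375 cells, against 7.21 and 5.87 FPKM in NOMO-1 cells. CD59, which protects cells from complement, had 288 and 269 FPKM in A375 cells, against 5.94 and 5.54 FPKM in NOMO-1 cells. PYGB, a glycogen phosphorylase, had 309 and 297 FPKM in A375 cells, against 9.50 and 9.12 FPKM in NOMO-1 cells. These 3 genes passed the rule in both lines and still lay far apart.

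In the other direction, TMSB4X, thymosin beta 4, which binds actin monomers, had 27.3 and 24.3 FPKM in A375 cells, against 806 and 722 FPKM in NOMO-1 cells. SAMHD1, which breaks down nucleotides in myeloid cells, had 5.79 and 7.95 FPKM in A375 cells, against 110.5 and 119 FPKM in NOMO-1 cells. MT1X, a metallothionein with near-identical copies, had 8.32 and 7.02 FPKM in A375 cells, against 202 and 166 FPKM in NOMO-1 cells. Their log2 differences were -4.84 for TMSB4X, -3.89 for SAMHD1 and -4.41 for MT1X.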
